A study of Mus musculus with 4 samples.

Results

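First introns of protein-coding genes held 35240 of the 298793 DNase-seq peaks of biosample 1 and 9024 of the 97430 of biosample 2, counting only peaks away from promoters. A peak belonged here when its midpoint lay on chromosomes 1 to 19, in intron 1 of the longest transcript of a GENCODE M21 protein-coding gene, and over 1000 bp from every start site of a protein-coding transcript. These peaks made up 12.2% (95% Wilson interval 12.1 to 12.3) of the 289298 biosample 1 peaks on those chromosomes and 9.53% (9.35 to 9.72) of the 94658 of biosample 2. They are called first-intron peaks below, and peaks in any other intron, under the same distance limit, later-intron peaks, of which there were 70809 and 21523. Of the 20807 genes, 19417 had an intron and 17333 had at least 2. The 1605 and 429 first-intron peaks in genes with 1 intron were counted, but stayed out of the comparison of densities.

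The cells were 3T3-L1, an immortalized mouse line of preadipocyte fibroblasts that can be turned into fat cells, labelled as strain C57BL/6J, with no genotype change, no treatment and no time point named. DNase I cuts DNA where nucleosomes are displaced, and a peak is a window of at most 150 bp where cuts were dense. Each of the 2 biosamples gave 2 technical libraries, 4 in all, and the authors deposited 1 peak list and 1 list of wider hotspots per biosample. Nothing in the labels says that the biosamples were separate cultures, the lists hold no read counts, and depth is unknown, so each interval covers counting error over peaks only. The biosample 1 list was 3.07 times as long, hence densities are compared within a list and not between lists. All 7 fibroblast markers examined, such as Col1a1 and Pdgfrb, had a promoter peak in both lists, while the blood markers Ptprc, Cd3e and Cd79a and all 3 epithelial markers had none in either. In a wider list of 10 blood genes, Csf1r had a promoter peak in both lists and Spi1 in biosample 1. Of the 3 endothelial markers Pecam1 and Cdh5 had a promoter peak in both lists and Kdr had none.

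Intron 1 separates the first exon from the rest of the gene and begins a short way downstream of the promoter. It is often the longest intron, and in mammals it is known to hold many enhancers and alternative promoters, which bind transcription factors and displace nucleosomes as promoters do. CTCF, a zinc finger protein, binds at insulators and at the anchors of chromatin loops. AP-1, a dimer of Fos and Jun proteins, is a common occupant of enhancers in fibroblasts, where TEAD factors of the Hippo pathway often bind beside it.

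The sequences of 9 first-intron peaks found in both lists show what such sites look like. They were taken by rule as the strongest peaks, by mean score percentile over both lists, that held a given motif match. All lay over 5 kb from every start site except for the SP/KLF peak. The last is the strongest peak over 5 kb from start sites in a gene of an adipogenic factor. Among those genes a peak of Klf9, 1685 bp from its start site, was stronger (scores 141 and 72) and is not shown. The score is a value that the authors gave each peak, at most 150 in either list and with no definition in the sources used here. It ranks peaks within its list only. Each sequence is the plus strand of GRCm38, the assembly of mm10, over the whole window of the biosample 1 peak, with the match or matches it is shown for in capitals. Matches to other motifs were left in lower case, and there were such matches of AP-1 in Map3k14 and Peg3, of RUNX in Agfg2 and P3h2, and of C/EBP in Fam102b. A match is a string of letters and not evidence of binding.

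The first 3 were the strongest peaks with an AP-1 match, which reads TGACTCA or, on the other strand, TGAGTCA. They lay in Agfg2, whose product acts on Arf GTPases (chr5:137671936-137672085, scores 150 and 106), in Taok3, a protein kinase gene (chr5:117158656-117158805, scores 150 and 104), and in Ngef, a guanine nucleotide exchange factor gene (chr1:87551156-87551305, scores 149 and 101). Ngef had 2 matches.
Agfg2: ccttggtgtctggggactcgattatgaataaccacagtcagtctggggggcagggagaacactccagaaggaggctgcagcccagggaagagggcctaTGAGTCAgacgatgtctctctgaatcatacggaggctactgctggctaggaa
Taok3: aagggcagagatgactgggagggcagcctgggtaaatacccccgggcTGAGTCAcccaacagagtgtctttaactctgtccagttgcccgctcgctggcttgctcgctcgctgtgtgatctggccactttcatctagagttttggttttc
Ngef: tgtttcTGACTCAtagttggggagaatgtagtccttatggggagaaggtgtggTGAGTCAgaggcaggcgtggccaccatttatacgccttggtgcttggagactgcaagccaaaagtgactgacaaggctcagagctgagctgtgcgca

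The next 3 carried a CTCF match, an AP-1 match together with a TEAD match, and a RUNX match. They lay in Map3k14, the kinase gene of the alternative NF-kappaB pathway (chr11:103246516-103246665, scores 144 and 87), in Fam102b (chr3:109010996-109011145, scores 148 and 93), and in Rbm20, a splicing regulator gene (chr19:53731996-53732145, scores 149 and 109). In Fam102b the AP-1 match came before the TEAD match.
Map3k14: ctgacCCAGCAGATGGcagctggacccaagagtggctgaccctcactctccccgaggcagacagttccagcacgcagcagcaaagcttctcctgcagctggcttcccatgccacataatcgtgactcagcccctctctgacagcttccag
Fam102b: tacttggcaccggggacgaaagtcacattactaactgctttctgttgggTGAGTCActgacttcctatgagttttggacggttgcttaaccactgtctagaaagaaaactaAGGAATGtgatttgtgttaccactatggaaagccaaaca
Rbm20: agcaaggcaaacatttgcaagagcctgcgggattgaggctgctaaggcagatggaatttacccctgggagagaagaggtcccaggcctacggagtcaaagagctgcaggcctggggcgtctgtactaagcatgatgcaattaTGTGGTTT

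The last 3 carried a C/EBP match, an SP/KLF match within 2 kb of the start site, and the AP-1 match of the adipogenic factor gene. They lay in P3h2, a collagen prolyl hydroxylase gene (chr16:26041456-26041605, scores 145 and 93), in Peg3, an imprinted zinc finger gene (chr7:6728636-6728785, scores 144 and 84), and in Zfp423, a determinant of the preadipocyte state (chr8:87922576-87922725, scores 128 and 67). The Zfp423 peak lay 26916 bp from the start site of its gene.
P3h2: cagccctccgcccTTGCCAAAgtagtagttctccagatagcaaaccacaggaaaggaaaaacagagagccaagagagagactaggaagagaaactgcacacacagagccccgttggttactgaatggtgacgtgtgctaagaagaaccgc
Peg3: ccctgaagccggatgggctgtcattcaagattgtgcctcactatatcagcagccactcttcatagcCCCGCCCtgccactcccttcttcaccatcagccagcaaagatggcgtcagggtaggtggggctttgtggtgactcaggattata
Zfp423: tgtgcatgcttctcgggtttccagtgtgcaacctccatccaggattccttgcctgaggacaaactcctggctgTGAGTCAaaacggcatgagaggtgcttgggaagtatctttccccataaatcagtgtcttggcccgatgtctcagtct

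First introns were denser in peaks than the later introns of the same set of genes. In biosample 1 they held 175.9 peaks per Mb (174.0 to 177.7, exact Poisson interval) over 191.3 Mb, against 116.9 (116.1 to 117.8) over 605.5 Mb of later introns, a ratio of 1.50 (1.48 to 1.52, exact conditional interval). In biosample 2 they held 44.9 per Mb (44.0 to 45.9) against 35.5 (35.1 to 36.0), a ratio of 1.26 (1.23 to 1.30). All 19 chromosomes had a ratio above 1 in each list, from 1.30 to 1.84 with a median of 1.49 in biosample 1 and from 1.04 to 1.62 with a median of 1.29 in biosample 2. The interval excluded 1 on all 19 chromosomes in biosample 1 and on 14 in biosample 2. The highest ratio in both lists was that of chromosome 8, which holds a first intron of over 1 Mb, that of Gm20388. Without such introns, left out after the data were seen, the pooled ratios were 1.49 and 1.25.

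The excess of first introns was largest next to the distance limit and was lost far from it. Between 1 and 2 kb from the nearest start site, first introns of biosample 1 held 472 peaks per Mb and later introns 220 (ratio 2.14, 2.05 to 2.24). At 2 to 5 kb the ratio was 1.47, at 5 to 10 kb 1.25, at 10 to 20 kb 1.22 and at 20 to 50 kb 1.12. At 50 to 100 kb it was 0.976 (0.934 to 1.02), and beyond 100 kb first introns were the sparser, with 61.7 against 73.0 per Mb (ratio 0.844, 0.794 to 0.897). In biosample 2 the ratio went from 1.99 (1.82 to 2.18) at 1 to 2 kb through 1.26 (1.18 to 1.35) at 2 to 5 kb to 0.798 (0.710 to 0.895) beyond 100 kb. In its 4 classes from 5 to 100 kb the ratio lay between 0.940 and 1.05 and each interval included 1. The limit itself cut through a steep slope: in intron 1, density was 687 per Mb (biosample 1) and 249 (biosample 2) at 500 to 1000 bp, and 508 and 127 at 1000 to 1500 bp.

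**Figure D1:**
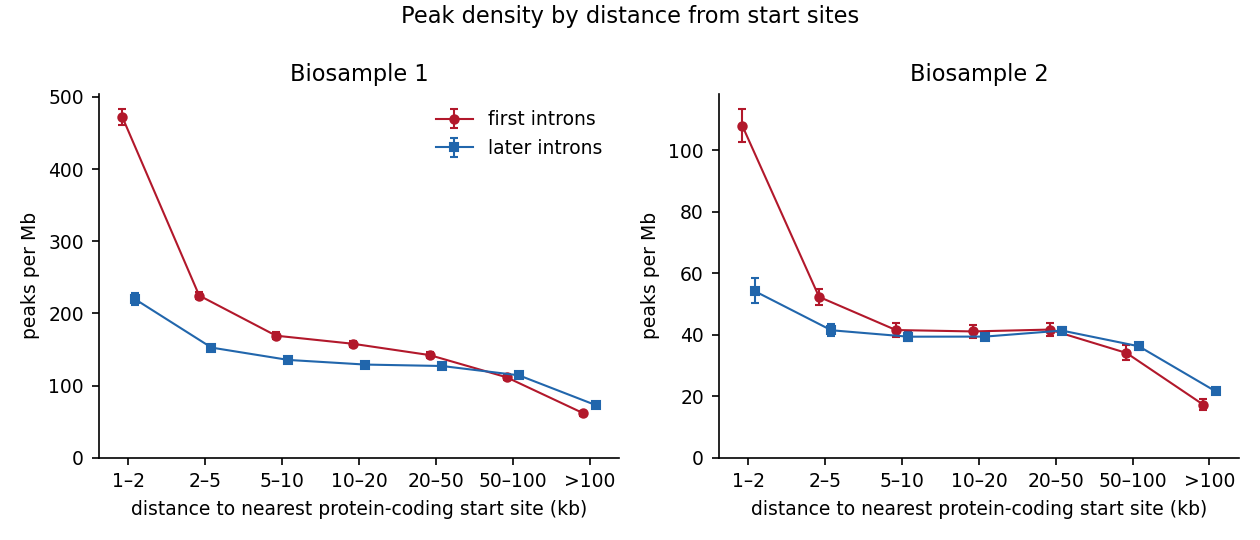
Peaks per Mb (vertical axis, starting at 0) in first introns (circles) and later introns (squares) by distance to the nearest protein-coding start site in kb, for each biosample; bars are 95% exact Poisson intervals. First introns lie at 472 and 108 per Mb at 1 to 2 kb, well above later introns, and both kinds meet or cross by 50 to 100 kb.

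First-intron sequence lies nearer to start sites as a whole, so the ratio was also taken at like distance, at like base composition and gene by gene, with Mantel-Haenszel ratios over the classes. Within the 7 distance classes it was 1.27 (1.25 to 1.28) in biosample 1 and 1.10 (1.08 to 1.13) in biosample 2. It was above 1 on 19 chromosomes and on 14. Within deciles of GC content it was 1.46 and 1.22, and within distance classes crossed with GC deciles 1.28 and 1.13. With each gene as its own class it was 1.44 (1.42 to 1.46) and 1.12 (1.09 to 1.16). In biosample 2 the value within genes depended on the sequence nearest to start sites. Limited to sequence over 2000 bp from start sites it was 0.978 (0.947 to 1.01), and over 5000 bp 0.916 (0.883 to 0.951). Biosample 1 gave 1.22 and 1.11.

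Intron 1 was the densest in both lists, and past it the lists differed. In biosample 1 density fell from intron to intron up to intron 5, with 174.8 peaks per Mb in intron 1, 132.9 in intron 2, 122.9 in intron 3, 116.4 in intron 4, 109.2 in intron 5 and 112.0 (110.8 to 113.3) in intron 6 and later, where the interval met that of intron 5 (106.2 to 112.2). In biosample 2 intron 1 had 44.7 and introns 2, 3, 4 and 5 had 36.7, 35.9, 35.8 and 32.8, with 36.0 (35.3 to 36.7) in intron 6 and later. There introns 2, 3 and 4 lay within each other's intervals, and intron 6 and later stood above intron 5 (31.2 to 34.4). In introns with at least 10 kb of eligible sequence, which took away the short ones, intron 1 held 157.2 against 123.6 per Mb in intron 2 in biosample 1, and 41.7 against 35.0 in biosample 2. First introns were longer than later ones, with a median full length of 2956 against 1246 bp. At like length the ratio was highest in short introns, at 3.03 (2.86 to 3.21) and 2.02 (1.78 to 2.29) under 2 kb, and 1.38 and 1.39 over 100 kb.

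**Figure D2:**
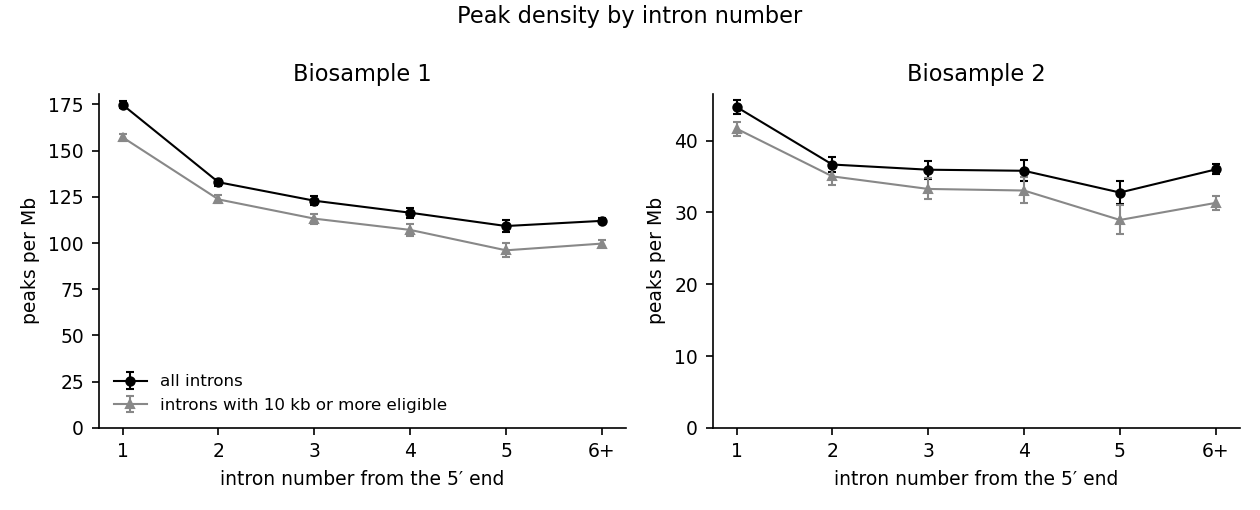
Peaks per Mb (vertical axis, starting at 0) by intron number from the 5′ end in genes with 2 or more introns, for each biosample, in all introns (circles) and in introns with at least 10 kb of eligible sequence (triangles); bars are 95% exact Poisson intervals. Intron 1 stands highest in all 4 series of points, and in biosample 1 the fall goes on to intron 5.

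The excess was larger in genes with an accessible promoter. Of genes with eligible sequence in both kinds of intron, 8889 had a peak within 1000 bp of one of their own start sites in biosample 1 and 3756 had none. Where the promoter had a peak, first introns held 221.2 peaks per Mb and later introns 135.5, and the ratio within genes was 1.60 (1.57 to 1.63). Where it had none, first introns held 77.7 and later introns 73.5 per Mb, and the ratio within genes was 0.863 (0.830 to 0.898). In biosample 2, with 7561 and 5084 genes, first introns held 60.5 and 26.8 per Mb and later introns 43.5 and 25.9, and the ratios within genes were 1.29 (1.24 to 1.33) and 0.833 (0.789 to 0.880). Genes without a promoter peak were on the other side of 1 when pooled, with a ratio of densities of 1.06 (1.02 to 1.09) in biosample 1 and 1.04 (0.988 to 1.08) in biosample 2, where the interval included 1. The pooled ratios for genes with a promoter peak were 1.63 and 1.39. Beyond 5 kb from start sites, a limit added after the data were seen, the ratios within genes in biosample 1 were 1.20 and 0.836. In biosample 2 they were 0.991 (0.947 to 1.04) and 0.789. Genes without a promoter peak thus had the lower ratio within genes in both lists at both limits, and the intervals of the 2 gene groups did not overlap in any of these 4 pairs.

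**Figure D3:**
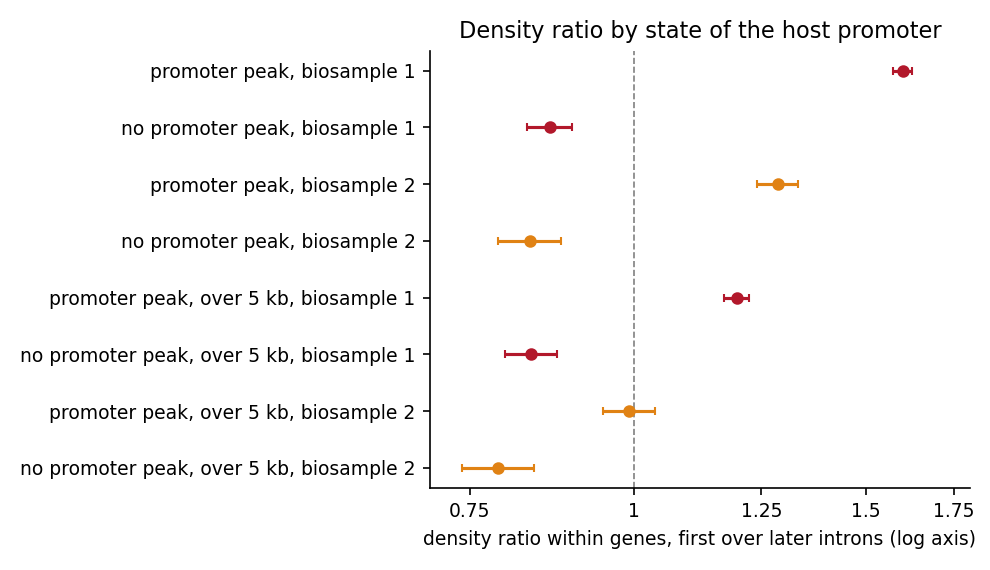
Density ratio of first over later introns with each gene as a class (horizontal log axis, dashed line at 1) for genes with and without a peak at their own promoter, in both biosamples, over 1 kb and over 5 kb from start sites; bars are 95% intervals. The 4 values for genes without a promoter peak lie between 0.789 and 0.863, and those for genes with a promoter peak between 0.991 and 1.60.

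Gene by gene the direction was mixed. Among 3365 genes with at least 10 kb of eligible sequence in both kinds of intron, biosample 1 was denser in intron 1 in 1966 (58.4%) and sparser in 1346 (40.0%). Biosample 2 was denser in intron 1 in 1367 (40.6%) and sparser in 1602 (47.6%), and 396 had no peak in either kind of intron. Intron 1 was the denser in both lists in 1153 genes and the sparser in both in 990. An intron 1 without a peak counted as sparser wherever the later introns held any, and as denser in the reverse case. Eligible length was not matched between the 2 kinds of intron, so these counts depend on length and on the number of peaks.

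A minority of genes carried most first-intron peaks. Of 14276 genes with eligible first-intron sequence, 7633 (53.5%) had a first-intron peak in biosample 1, 3872 (27.1%) in biosample 2 and 3833 (26.8%) in both lists. In biosample 1, 2351 genes had 1 peak, 2988 had 2 to 4, 1378 had 5 to 9 and 916 had at least 10, while in biosample 2 the last class held 77 genes. The richest 1428 genes held 57.7% of the peaks in biosample 1 and 68.5% in biosample 2. The 1428 genes with the longest first introns held 61.0% of the eligible sequence. The share of genes with a peak in both lists followed length, from 3.32% of 2923 genes under 1 kb through 44.1% of 1767 genes at 10 to 20 kb to 81.3% of 893 genes over 50 kb.

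The first introns with the most peaks found in both lists (shared peaks, counted as biosample 1 peaks that met a biosample 2 peak by at least 1 bp) were long. The first was that of Gm20388, a predicted gene whose annotated intron 1 runs across 73 other protein-coding genes (chr8:119910940-124295357, plus strand) and held 1047 biosample 1 and 305 biosample 2 peaks, 290 of them shared. Peaks that lay in this or another first intron of over 1 Mb and in no shorter one were 2.44% and 2.85% of all first-intron peaks. Next came Cmss1 (100 and 31 peaks, 28 shared), whose first intron overlaps Filip1l, a filamin-binding protein gene on the other strand (43 and 21, 19 shared), so the same peaks can count for both.

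Ank3, the ankyrin-G gene, which ties membrane proteins to the spectrin skeleton, held 79 and 27 peaks, 25 of them shared, over 267.3 kb of intron 1. Its density of 295.6 per Mb in biosample 1 stood above the 187.8 of its later introns. Fmnl2, a formin gene of actin assembly, held 68 and 22 peaks, 22 shared, at 436.1 per Mb against 184.4 in later introns. Magi1, a scaffold gene of cell junctions, held 78 and 20 peaks with 20 shared, at 230.1 against 89.9 per Mb. All 3 genes, picked for the count of peaks in intron 1, were denser there than in their own later introns in biosample 1.

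Kirrel3, a cell adhesion gene of the immunoglobulin superfamily, held 56 and 20 peaks, 19 shared, and was the sparser in intron 1, at 134.9 against 269.6 per Mb in biosample 1. The Notch coactivator genes Maml2 (57 and 17 peaks) and Maml3 (59 and 17 peaks) had 17 shared peaks each and densities of 249.1 and 239.3 per Mb in biosample 1. Arhgap26, which encodes a GTPase-activating protein, held 59 and 16 peaks, 16 shared, with no peak at its own promoter in either list. The first intron of Arhgap26 overlaps Fgf1 and that of Maml2 overlaps Gm17571, so some of these peaks can also lie in those genes. Of these 10 genes, 8 were denser in intron 1 than in later introns in biosample 1; Kirrel3 and Filip1l were not. The 10 were picked by the count of shared peaks in intron 1, which favours dense first introns and long ones, the shortest having 152.3 kb. Of the 3365 genes with 10 kb or more eligible in both kinds of intron, 58.4% were denser in intron 1 in biosample 1.

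Ranked by density of shared peaks, in first introns with at least 20 kb of eligible sequence, the leading genes were others. Creb3l1, which encodes a membrane-bound CREB family factor of the endoplasmic reticulum, held 12 and 8 peaks in 21.4 kb, 8 of them shared, against 2 and 1 in 17.6 kb of later introns. Hdac7, a class IIa histone deacetylase gene, held 28 and 10 peaks in 27.3 kb, 9 shared, against 2 and 0 in 13.4 kb. Ets1, the gene of an ETS family transcription factor, held 28 and 10 in 31.3 kb, 9 shared, against 2 and 2 in 24.5 kb. In these 3 genes, picked for the density of intron 1, most intronic peaks over 1000 bp from start sites lay in intron 1 of the transcript used.

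The others were Gnptab, needed for the mannose 6-phosphate tag of lysosomal enzymes (10 and 6 peaks), Gxylt2, a xylosyltransferase gene (22 and 8), and Iffo2 (16 and 7). Then followed Nek6, a mitotic kinase gene (20 and 11), Pde4a, a cAMP phosphodiesterase gene (9 and 7), Nf2, which encodes merlin of the Hippo pathway (13 and 6), and Vmn1r42, a vomeronasal receptor gene with 1 intron (7 and 6). Their shared peaks ranged from 263.2 to 373.3 per Mb. The 9 genes with later introns had between 63.3 and 243.3 biosample 1 peaks per Mb there. A promoter peak was present in both lists in 9 of the 10, the exception being Pde4a, with a peak in biosample 1. The densities chose these genes and are given as a description.

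Some of the longest first introns had no peak at all. Cntnap2, a neuronal adhesion gene, had none in either list in 592.9 kb, which allows up to 5.06 per Mb (3 counts over the eligible length), although its promoter had a peak in both lists. Lrp1b, a lipoprotein receptor family gene, had none in 328.2 kb (up to 9.14 per Mb), Naaladl2 none in 230.6 kb, Mgat4c, a glycosyltransferase gene, none in 181.2 kb, and Dok6, an adaptor gene of receptor tyrosine kinases, none in 169.7 kb. None of these 4 had a promoter peak in either list. Their later introns were sparse as well, at 2.69 to 7.62 peaks per Mb in biosample 1, and those of Cntnap2 held 13.4.

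In 70 genes at least 10 shared peaks lay in later introns and none in a first intron of at least 5 kb of eligible sequence. The number of genes open to this rule is not given here, so the 70 cannot be called many or few. Of all genes with 5 to 10 kb of eligible first intron, 26.9% had a first-intron peak in both lists, and with 10 to 20 kb 44.1%. Among those with the longest first introns, Alk, a receptor tyrosine kinase gene, had 13 and 1 peaks in 222.7 kb of intron 1, against 64 and 20 in later introns. Pard3b, a cell polarity gene, had 1 and 1 in 127.7 kb against 50 and 16. Dlgap1, a scaffold gene of synapses, had 5 and 0 in 107.9 kb against 79 and 34, and Frmd4b 4 and 0 in 87.7 kb against 46 and 20. The 0 counts of Dlgap1 and Frmd4b in biosample 2 allow up to 27.8 and 34.2 peaks per Mb.

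The gene lists below were taken from textbook knowledge of the tissue. The count of each stands beside the 26.8% of all genes with a first-intron peak in both lists. It also stands beside the share among all genes in the length class of the list's median. Single genes of a list can lie far outside that class, so the shares are not matched gene by gene. Adipogenic factor genes had such a peak in 4 of 13 genes with eligible sequence, where the median eligible length was 4.03 kb, beside 15.2% of all genes with 2 to 5 kb. Zfp423 held 16 and 5 peaks, Klf9, a Krüppel-like factor gene, 13 and 4, Pparg, the master regulator of fat cell formation, 6 and 2, and Ebf1, an early B cell factor gene that also acts in adipogenesis, 4 and 1. Zfp423, Klf9 and Pparg had 52.05, 22.42 and 19.35 kb of eligible first intron, above the class of the median. In their own length classes 81.3%, 65.7% and 44.1% of all genes were counted. Prdm16, with 106.9 kb the longest of the list and in the same class as Zfp423, held 1 and 0 peaks and was not counted. Nfia and Nfib, of the nuclear factor I family, held 5 and 6 peaks in biosample 1 and none in biosample 2. The list as a whole had 241.1 peaks per Mb in first and 157.3 in later introns of biosample 1, and 53.6 and 50.5 in biosample 2.

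Such a peak was found for 3 of 12 mature adipocyte genes, whose median was 5.64 kb, beside 26.9% of all genes with 5 to 10 kb. Lpl, lipoprotein lipase, held 7 and 5 peaks in 5.95 kb and none in 15.7 kb of later introns. Agpat2, of triglyceride synthesis, held 3 and 1, and Adipoq, the adiponectin gene, 1 and 1 without a promoter peak. Of the preadipocyte and anti-adipogenic genes 6 of 12 were counted, with a median of 6.13 kb in the same length class, led by Smad3, the mediator of TGF-beta signals, with 36 and 14 peaks, 13 of them shared, in 85.1 kb. Notch2 held 16 and 4, Foxo1, a forkhead factor gene under insulin control, 15 and 2, and the Wnt ligand gene Wnt5a 8 and 9 in 4.29 kb, with 4 shared.

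Of 18 fibroblast and matrix genes 10 were counted, with a median of 7.74 kb, again beside 26.9%. Timp2, an inhibitor of matrix metalloproteinases, held 15 and 6, the collagen V genes Col5a1 and Col5a2 14 and 5, and 16 and 4, and Loxl1, a lysyl oxidase gene of elastic fibres, 13 and 4. Col6a3, of collagen VI, with 6 and 4 peaks, had as many shared peaks (4) as Col5a2 and Loxl1. Adhesion and actin genes, whose median eligible first intron was 27.9 kb, had one in 15 of 17, beside 65.7% of all genes with 20 to 50 kb. Cald1, caldesmon, held 26 and 13 peaks, Parva, parvin alpha, 26 and 13, Actn1, alpha-actinin, 37 and 10, and Pxn, paxillin, 19 and 8. Pxn had no peak in its 7.73 kb of later introns.

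Of 12 Hippo and AP-1 genes 7 were counted, with a median of 5.24 kb, beside the same 26.9%. Tead4 held 20 and 6, Tead1 13 and 5, Fosl2, a Fos family gene, 11 and 6, and Vgll3, a TEAD cofactor gene, 17 and 1. With 1 shared peak each, as in Vgll3, Fosb, another Fos family gene, held 2 and 1, Yap1, the Hippo pathway coactivator gene, 2 and 1, and Ajuba, a LIM domain protein gene, 5 and 1. Neuronal genes were the contrast in density, with 5 of 17 counted although their median eligible first intron was 107.9 kb, beside 81.3% of all genes with over 50 kb. Their first introns held 22.4 and 3.01 peaks per Mb, under the 34.3 and 10.4 of their later introns. Kcnd2, a potassium channel gene, held 12 and 2 in 496.7 kb, Nrg3, a neuregulin gene, 10 and 2, the splicing factor genes Rbfox1 9 and 2 and Rbfox3 8 and 1, and Snap25, of the synaptic vesicle fusion machinery, 2 and 2. Of 6 blood genes only Csf1r, the CSF1 receptor gene, was counted, with 5 and 3 peaks, where the median was 2.21 kb, beside 15.2%. In each biosample, the first introns were the denser in 7 of the 8 lists, all but the neuronal one, and no list was tested. Over all genes first introns were also the denser, at 172.8 against 115.4 per Mb in biosample 1 and 44.3 against 35.5 in biosample 2. For the blood list, every first-intron peak lay in Csf1r.

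The 10 strongest shared first-intron peaks had scores of 149 or 150 in biosample 1 and 100 to 126 in biosample 2. They lay 1099 to 59252 bp from the nearest start site, in Aida, Phldb2, a gene of cortical microtubule anchoring, Rbm20, Agfg2, Taok3, Gm42906, Hip1, of clathrin-mediated endocytosis, Ngef, Nr1d1, the circadian repressor Rev-erb alpha, and Bdnf, a neurotrophin gene. The top peak, in Aida, lay 1946 bp from the start site (chr1:183299276-183299425, scores 150 and 126) and that of Phldb2 at 6183 bp (chr16:45837976-45838125, scores 149 and 118), and neither had a match to any of the 9 motifs. The peaks of Nr1d1 and Bdnf lay 1282 and 1099 bp from their start sites, just past the limit. They had a GC content of 62.0% and 63.5% and an SP/KLF match each. Another SP/KLF match was in the peak of Gm42906, at 59252 bp and with a GC content of 64.5%. An AP-1 match was present in 3 of the 10 and a CTCF match in 0.

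As a class, first-intron peaks were of middling rank. Their median score percentile was 48.0 (interval 48.0 to 49.1) in biosample 1 and 48.3 (48.3 to 50.2) in biosample 2, against 46.9 and 44.2 for later introns and 75.1 and 67.7 for promoters. The top score decile of the list held 7.28% of them in biosample 1 and 7.18% in biosample 2, and 28.4% and 21.4% of promoter peaks. They were less often in the bottom decile than later-intron peaks, at 6.59% (6.34 to 6.86) against 9.10% (8.89 to 9.31) in biosample 1 and 9.72% (9.12 to 10.3) against 12.7% (12.2 to 13.1) in biosample 2. The 2 kinds of intron differ in distance to start sites, and at like distance the order depended on the class. At 1 to 5 kb first-intron peaks had the lower median percentile, 48.0 (46.9 to 48.0) against 49.1 (49.1 to 50.2) in biosample 1 and 48.3 against 50.2 in biosample 2, where the intervals overlapped. The top decile there held 6.42% of first-intron against 7.21% of later-intron peaks in biosample 1 and 6.34% against 8.36% in biosample 2. Their bottom-decile share there was 5.43% against 6.23% in biosample 1 and 8.90% (7.98 to 9.91) against 8.78% (7.71 to 9.97) in biosample 2. Beyond 5 kb they had the higher median, 49.1 against 46.9 and 48.3 against 44.2, and the smaller bottom-decile share, 7.39% against 9.53% and 10.2% against 13.2%.

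First-intron peaks of biosample 1 were found again in biosample 2 less often than later-intron peaks. Of the 35240, 8439 (23.9%, 23.5 to 24.4) met a biosample 2 peak, against 20470 of 70809 later-intron peaks (28.9%, 28.6 to 29.2), a difference of -4.96 percentage points (-5.52 to -4.40, Newcombe interval). At like score the gap was wider, with an odds ratio of 0.562 (0.537 to 0.587) over score deciles. In decile 8 of the biosample 1 scores 50.9% of first-intron and 67.3% of later-intron peaks were met, and in decile 7 24.1% and 37.9%. In the top decile the order turned, at 96.7% against 94.4% (difference 2.29 percentage points, 1.32 to 3.20). In the other direction 8482 of 9024 biosample 2 first-intron peaks (94.0%) met a biosample 1 peak, against 95.2% of later-intron peaks (odds ratio over score deciles 0.667, 0.596 to 0.746). Depth is unknown, and its part in these shares was not tested.

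**Figure D4:**
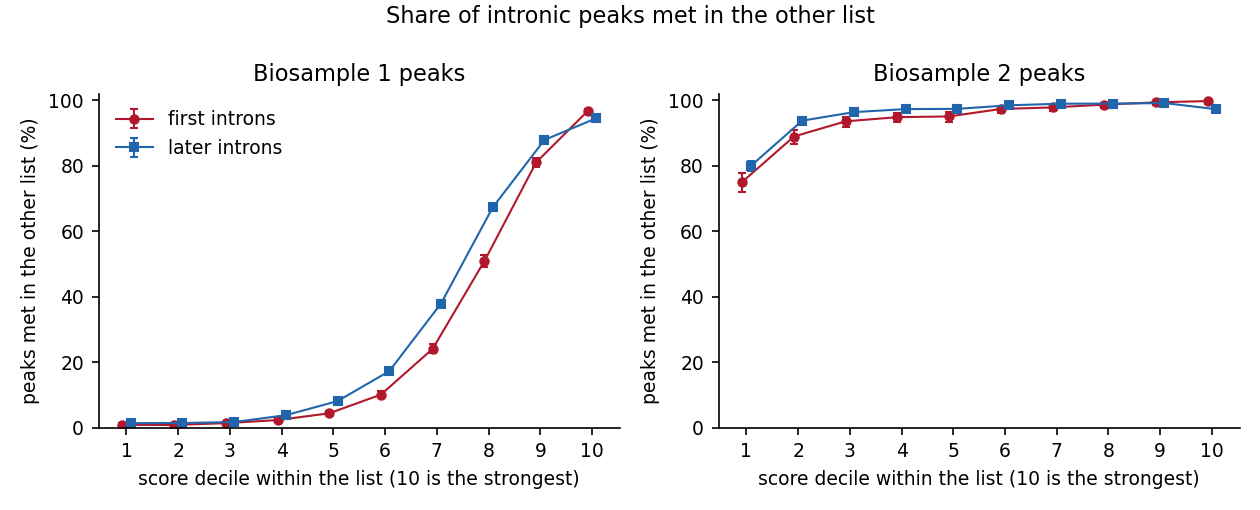
Share of peaks that met a peak of the other list (vertical axis, percent) by score decile within the list, for first introns (circles) and later introns (squares), for the peaks of each biosample; bars are 95% Wilson intervals. In biosample 1 first introns lie below later introns through decile 9, by 16.4 percentage points in decile 8, and above them in decile 10.

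In sequence, first-intron peaks resembled later-intron peaks more than promoters. The median GC content of 200 bp windows was 47.0% in first and in later introns of biosample 1, and 55.5% at promoters. CpG-rich windows, with an observed over expected CpG ratio of at least 0.6 and at least 50% GC, made up 1.25% (1.14 to 1.38) of first-intron and 0.514% (0.464 to 0.570) of later-intron peaks, and 40.6% of promoter peaks. In biosample 2 these shares were 2.18%, 0.781% and 54.5%. Of the 442 CpG-rich first-intron windows of biosample 1, 338 lay within 5 kb of a start site. There they made up 2.36% of first-intron peaks, against 0.497% (0.411 to 0.602) beyond 5 kb. CpG-rich shares of later-intron peaks were 1.145% within 5 kb and 0.420% (0.372 to 0.475) beyond 5 kb, where the 2 intervals overlapped. Windows at least 50% repeat-masked were somewhat fewer in first introns, at 10.3% against 11.7% in biosample 1 and 5.96% against 7.08% in biosample 2. A start site of a noncoding gene lay within 1000 bp of 1.52% of first-intron and 0.932% of later-intron peaks in biosample 1. At 1 to 5 kb from protein-coding start sites these shares were 2.49% and 1.72%, and beyond 5 kb 0.846% and 0.814%. Annotation overlaps were few: 2.10% of biosample 1 first-intron peaks also lay in a later intron of another gene and 3.92% in an exon of some transcript.

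Matches to 9 motifs, on both strands, were sought in 200 bp windows centred on the 8439 shared first-intron peaks and the 20470 shared later-intron peaks, beside all 88295 shared peaks on these chromosomes. The letters were TGACTCA for AP-1, CATTCCA or CATTCCT for TEAD, TGTGGTTA or TGTGGTTT for RUNX, TTGCNNAA for C/EBP, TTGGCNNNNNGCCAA for NF1, CCGGAAGT for ETS, TGACGTCA for the cAMP response element (CRE) and GGGCGGG for SP/KLF, and CTCF had a core consensus of its own. No letters were shared out between motifs, so a window could match several.

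Among shared peaks CTCF gave the largest difference of the 9 motifs. A match was present in 429 first-intron windows (5.08%, 4.63 to 5.57) and in 2238 later-intron windows (10.9%, 10.5 to 11.4), a difference of -5.85 percentage points (-6.47 to -5.20), beside 7.99% of all shared peaks. It was of like size at 1 to 5 kb from start sites (4.78% against 11.7%) and beyond 5 kb (5.25% against 10.8%). First introns had the lower share in each of 5 score classes, cut within each kind of intron to hold about equal numbers of peaks, and the gap was widest in the middle class. From the weakest to the strongest class the shares were 6.05% against 8.17%, 7.38% against 14.2%, 6.07% against 16.7%, 4.14% against 12.0% and 1.63% against 3.49%. In the peaks of biosample 1 that met none of biosample 2, which were 26801 of its 35240 first-intron peaks, CTCF matches were rarer and the gap smaller, at 1.52% against 2.51% of 50339 later-intron peaks (difference -0.990, -1.19 to -0.787). Along the gene the share rose with intron number, from 5.08% in intron 1 to 7.39% in intron 2, 8.78% in intron 3 and 12.5% in intron 4 and later, each interval clear of the next except for introns 2 and 3. Promoter peaks had 2.03% and peaks outside genes 9.51%. Without peaks in first introns of over 1 Mb the first-intron share was 4.97%.

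**Figure D5:**
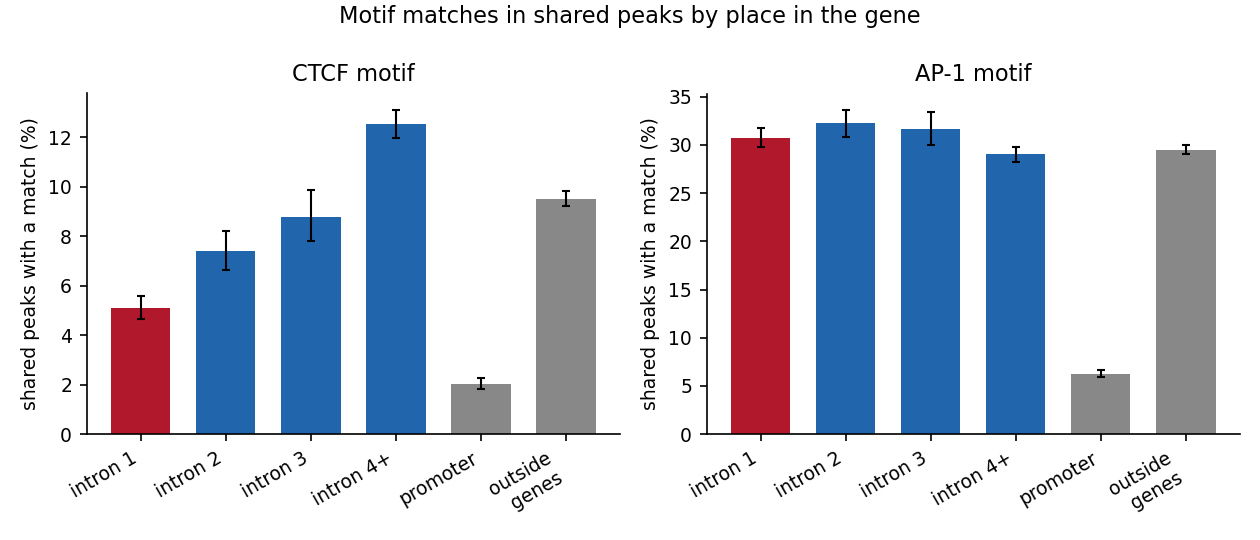
Share of shared peaks with a match (vertical axis, percent, starting at 0) to the CTCF motif (left) and the AP-1 motif (right) in introns 1, 2, 3 and 4 or later, at promoters and outside gene bodies; bars are shares and whiskers 95% Wilson intervals. CTCF goes from 5.08% in intron 1 to 12.5% in intron 4 and later, while AP-1 lies between 29.0% and 32.2% in all 4 intron classes.

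Among shared peaks AP-1 matches were about as frequent in both kinds of intron, in 30.8% of first-intron and 30.1% of later-intron windows (difference 0.689 percentage points, -0.474 to 1.86), and in 24.96% of all shared peaks. Among the peaks of biosample 1 alone they were rarer and first introns had the smaller share, 15.9% against 19.5% (difference -3.56, -4.12 to -3.0), the largest difference of the 9 motifs in that set. In shared peaks the distance classes pulled apart: at 1 to 5 kb first introns had the smaller share, 24.2% against 27.7% (difference -3.44, -5.84 to -1.06), and beyond 5 kb the larger, 34.4% against 30.4% (difference 4.02, 2.60 to 5.46). In first introns the AP-1 share went from 21.9% in the weakest of the 5 score classes to 44.4% in the strongest, and in later introns from 24.6% to 44.2%.

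With all distances pooled, the other motifs differed by about 1 percentage point or less in shared peaks. TEAD matches were in 15.5% against 14.4% (difference 1.06, 0.165 to 1.98; all shared peaks 12.7%), C/EBP in 11.1% against 10.1% (difference 0.997, 0.222 to 1.79; all 9.93%) and SP/KLF in 3.48% against 2.46% (difference 1.02, 0.590 to 1.48; all 8.41%). For RUNX (6.13% against 6.33%; all 5.30%), ETS (0.367% against 0.254%; all 1.38%) and CRE (0.415% against 0.308%; all 0.766%) the interval of the difference included 0. The NF1 palindrome was met in 5 first-intron windows and 17 later-intron windows, 0.0592% and 0.0831%, beside 0.0612% of all shared peaks, too few to tell apart. Among the peaks of biosample 1 alone these 7 motifs differed by less than 1 percentage point. There the TEAD share was 12.0% against 12.4% (difference -0.417, -0.899 to 0.0696). The C/EBP share was 9.41% against 9.29% (difference 0.113, -0.316 to 0.548), and both intervals included 0, as did those of CRE and NF1. The interval left out 0 for RUNX, at 4.39% against 5.06% (difference -0.668, -0.976 to -0.354). So it did for SP/KLF (difference 0.274, 0.0632 to 0.4925) and ETS (difference 0.0697, 0.00378 to 0.144).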

How the data were processed

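DNase-seq of 3T3-L1 cells was used from 4 libraries of 2 biosamples, grouped by the biological replicate number in the labels. Per the labels' file lists, the authors aligned both libraries of a biosample together to mm10 and derived its peaks and hotspots from that alignment, so the lists pool libraries. The aligner and caller are not given in the sources used here. Deposited peak lists give a score per peak, a whole number up to 150, used only for ranks within a list. The deposited hotspot lists give a −log10 q value per region, which was not ranked; hotspot positions served an alternative. Depth is unknown, and each list is 1 replicate, so no p-value was computed and intervals at 95% cover counting error over peaks only.

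First and later introns were taken from GENCODE M21 on chromosomes 1 to 19 of GRCm38.p6, from the protein-coding transcript with the longest spliced length, with ties broken by span. Start sites were the 52063 of all protein-coding transcripts. A base in both kinds of intron counted as first. Density was peaks per Mb of sequence over 1000 bp from every start site, and later-intron density covered genes with 2 or more introns. Tables by gene or by intron number count a peak for each gene whose intron holds it. A promoter peak lay within 1000 bp of a start site of the gene, and peaks were shared when they met by 1 bp. The steps were tested on simulated peaks of known ratio. Python 3.11.15, numpy 2.4.6, pandas 2.3.3 and scipy 1.17.1 were used.

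The genes named were those with the most shared first-intron peaks (10), the strongest shared peaks (10), the highest shared density with at least 20 kb eligible (10), the longest first introns without a peak (5), at least 10 shared later-intron peaks and none in a first intron of 5 kb or more (5), and the 4 richest genes of each of 8 gene lists, with ties. A gene that these rules give is not reported here. The rules, lists and motifs were chosen with earlier results of these data known. Alternatives were the transcript, the distance limit, the score limit, overlapping annotation, repeats, hotspots, merged peaks, GC content, the overlap rule and the motif window. No per-sample column of the files was left unused.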

Additional observations from a re-analysis of the deposited data

How the results depend on the processing

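Of 44 alternatives to the density ratios, 40 kept the direction and the side of 1. Over 11 alternatives the pooled ratio lay between 1.22 and 1.55 in biosample 1 and between 1.08 and 1.38 in biosample 2, lowest beyond 5000 bp and highest in the stronger 50% of each list. The 4 that fell below 1 were all of biosample 2. The ratio within genes was 0.978 (0.947 to 1.01) beyond 2000 bp and 0.916 (0.883 to 0.951) beyond 5000 bp. Beyond 5000 bp the ratio within distance classes was 0.996 (0.966 to 1.03), and that within genes with a promoter peak 0.991 (0.947 to 1.04). The interval excluded 1 for the 0.916 alone. The cause was not tested beyond the classes of distance already given. Beyond 5000 bp the first-intron peaks numbered 20914 and 5697 and the genes with a peak in both lists 2260; in the stronger 50% of each list these were 17076, 4444 and 2311, which follows from the smaller sets. The share of biosample 1 first-intron peaks met in biosample 2 was 22.8% when 50% of the peak had to be covered, 24.7% with hotspots in place of peaks, 25.7% in the stronger 50% of each list and 26.0% beyond 5000 bp. The AP-1 share was 28.2% within the peak itself, 37.4% in the stronger 50% of shared peaks and 34.4% beyond 5000 bp, and the CTCF share was 3.45% in the stronger 50%; the cause was not tested. The crossing of distance with GC content, the removal of first introns of over 1 Mb, the CTCF share outside exons and the 5000 bp limit for promoter states were added after seeing the data. No paired analysis was possible because each list pools both libraries of its biosample, and for the same reason no library could be left out. Unknown depth limits every share found in the other list, a GENCODE longest transcript need not be the one used in these cells, and the 2 lists are the only repeat of any value.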

Other observations

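A small set of first-intron peaks came from the shorter list alone. Of the 9024 in biosample 2, 542 met no biosample 1 peak, and 409 of these (75.5%, 95% Wilson interval 71.7 to 78.9) lay in a biosample 1 hotspot. The median distance of their midpoints to the nearest biosample 1 peak midpoint was 300 bp, against 20 bp for the 8482 that met one. They lay closer to promoters, with 283 (52.2%, 48.0 to 56.4) within 5 kb of a start site, against 3044 (35.9%, 34.9 to 36.9) of those that met a peak. CpG-rich windows made up 1.29% (0.627 to 2.64) and 2.24% (1.95 to 2.58). Peaks not met were more frequent at low score. A biosample 1 peak was met by 658 of 877 first-intron peaks in the weakest score decile of biosample 2, and by 646 of 648 in the strongest.

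Among host genes, ranked after the values were seen, Gm20388 led by its length, with 15 of its 305 biosample 2 peaks not met. En1, the engrailed homeobox gene, came next, with 5 of 8 not met, all 5 of them in biosample 1 hotspots. The genes with 3 such peaks included Cdh11, the cadherin gene of mesenchyme (3 of 12), Fat1, an atypical cadherin gene (3 of 7), Fosl2 (3 of 6), Lfng, which modifies Notch receptors (3 of 9), Nfil3, a bZIP repressor gene (3 of 8), and Nrg1, a neuregulin gene (3 of 8), and in each of these 6 all 3 lay in a biosample 1 hotspot. In Kcng3, a potassium channel subunit gene, none of the 3 of 3 did.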
